A study of Rattus norvegicus with 8 samples.

Results

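RANKL, OPG and M-CSF, the 3 secreted or membrane-bound proteins through which osteoblasts set the formation of osteoclasts, are encoded in the rat by Tnfsf11, Tnfrsf11b and Csf1. Their transcripts were followed on 8 microarrays of osteoblast-like cells, with and without Er:YAG laser irradiation. The members were the rat probes on the array whose gene name was one of these symbols. They came to 4 probes for 3 genes, of 45598 distinct rat probes carrying 34912 gene names. Of the 4 probes, 3 were bright enough to be tested. The Tnfsf11 probe was not.

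The cells were primary osteoblast-like cells released by enzymatic digestion from the calvaria of Wistar rats aged 3 to 5 days, so each culture was a mixture and not a clone. In the irradiated group, cells in 35-mm dishes were exposed once, with the medium removed, for 60 s. The laser was an Er:YAG device and the fluence 3.3 J/cm2. It emits infrared light that water absorbs strongly. The non-irradiated group received 0 J/cm2. RNA of both groups was collected 6 h later. The labels describe a growth medium and an osteoinduction medium with 50 µg/mL ascorbic acid, 10 mM β-glycerophosphate and 10 nM dexamethasone, a glucocorticoid, and no sample label separates the groups by medium. Each group had 4 arrays with replicate numbers 1 to 4, and both arrays of a number carried the same animal number, so each irradiated array was compared with the non-irradiated array of its own number. Whether a number stands for 1 animal or for pooled animals is not given in the sources used here.

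RANKL is a ligand of the tumour necrosis factor family, carried on osteoblast-lineage cells and lymphocytes or shed from them. It binds its receptor RANK on osteoclast precursors and turns on the NF-κB and NFATc1 programme that makes them osteoclasts. OPG is a soluble decoy receptor that captures RANKL before it reaches RANK, and M-CSF acts through its own receptor, encoded by Csf1r, to keep the precursors alive and dividing.

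The probe sequences are shown because each value below is the signal of a single spot that captures exactly these 60 bases, and because the Csf1 probes lie at different places. They are written 5′ to 3′ in lower case, with no base singled out.
Tnfsf11, probe A_64_P138810: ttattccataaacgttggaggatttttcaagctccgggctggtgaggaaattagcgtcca
Tnfrsf11b, probe A_44_P458021: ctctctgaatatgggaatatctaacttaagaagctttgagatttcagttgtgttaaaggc
Csf1, probe A_42_P695042: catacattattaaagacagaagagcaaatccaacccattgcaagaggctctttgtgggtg
Csf1, probe A_44_P1103077: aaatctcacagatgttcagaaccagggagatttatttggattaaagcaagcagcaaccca

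By the array's own annotation, on rat build rn4, the Tnfsf11 probe lies at chr15:59397916-59397975 and was designed to the transcript NM_057149. The Tnfrsf11b probe lies at chr7:90606882-90606941 and was designed to NM_012870. Of the Csf1 probes, A_42_P695042 lies at chr2:203292994-203293053 and was designed to NM_023981, and A_44_P1103077 lies at chr2:203296273-203296332 and was designed to XM_008761429, a predicted transcript variant. The Csf1 probes start 3279 bases apart. The array lists all 4 positions in descending order. Exon and UTR annotation of that build was not used here.

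Signals are given in 2 forms. The processed signal is the scanner software's background-corrected brightness, in arbitrary units. The log2 signal is its logarithm after the 8 arrays were brought to a common distribution, and changes are irradiated minus non-irradiated on that scale. A spot was counted as detected where the software marked it well above background. Median processed signals were 56.2 to 72.6 on the non-irradiated and 56.8 to 84.8 on the irradiated arrays, and 26543 to 30490 probes an array were detected. All 8 arrays lay on 1 slide, with non-irradiated cells in columns 1 and 3 and irradiated cells in columns 2 and 4, so slide column and irradiation cannot be told apart. Across the 26399 probes fitted by limma, 0% (0 probes) had an adjusted p under 0.1, and 670 (2.54%) had an unadjusted p under 0.05, 374 of them higher (1.42%) and 296 lower (1.12%) in irradiated cells. Of the 3 member probes tested, 0 passed either threshold. In whole cultures, fewer cells making a transcript and less of it per cell cannot be told apart.

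Tnfsf11, the gene of RANKL, was not detected on any of the 8 arrays. Its processed signals in non-irradiated cells were 3.02, 2.73, 2.60 and 2.32 for replicates 1 to 4. In irradiated cells they were 4.23, 7.83, 3.09 and 2.06. All lay under the dimmest detected probe of their array, which had a processed signal of 10.0 to 14.9 depending on the array.

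On the 4 non-irradiated arrays and on irradiated replicate 4 the Tnfsf11 spot was not above its local background, and the software had put a substitute value in place of a measurement. Those spots were brighter than 7.47% to 9.74% of the 308 negative control spots of their array. On irradiated replicates 1, 2 and 3 the spot passed a weaker test, being significantly above local background without being well above it, and was brighter than 97.1%, 99.4% and 96.8% of the negative controls. No fold is given, since both groups were below the detection limit.

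Of the 11591 probes never detected on any array, 113 (0.975%) passed the weaker test on at least 3 irradiated and 0 non-irradiated arrays, as Tnfsf11 did. In the mirror pattern there were 56 (0.483%). On the log2 scale the Tnfsf11 spot read 1.36 to 1.37 in the non-irradiated group and 1.82, 2.43, 1.97 and 1.36 in irradiated replicates 1 to 4. The irradiated group thus overlapped the non-irradiated one through replicate 4, and its higher readings were still those of a spot below the detection limit.

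**Figure D1:**
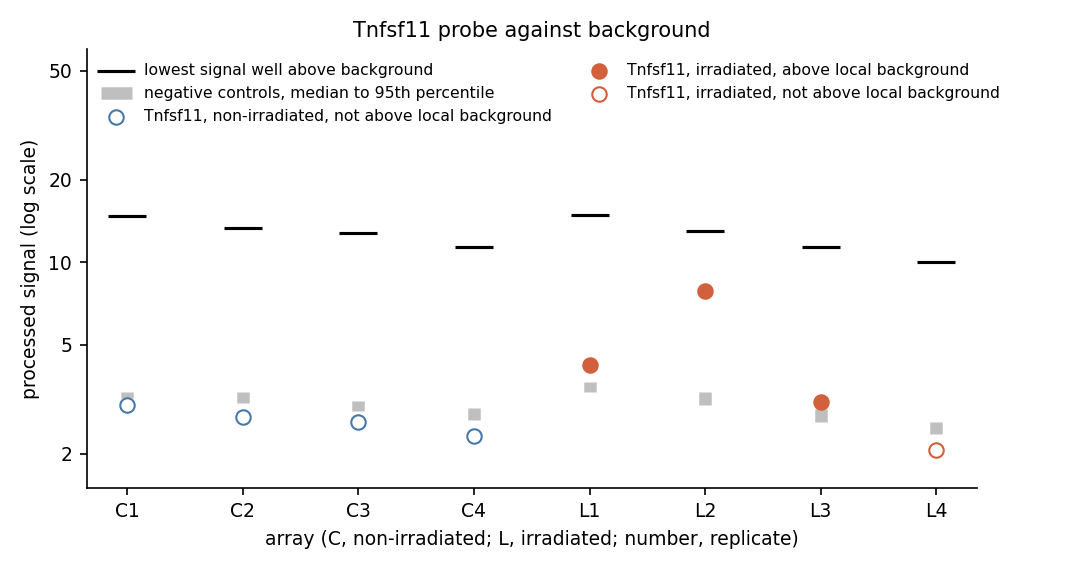
Processed signal of the Tnfsf11 spot on each array (log axis, arbitrary units), set against the negative control spots and the dimmest detected probe of the same array. The Tnfsf11 spot lies below the detection limit on all 8 arrays, and irradiated replicates 1 to 3 are the arrays on which it lies above most negative controls.

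Tnfrsf11b, the gene of OPG, was detected on all 8 arrays. Its processed signals in non-irradiated replicates 1 to 4 were 1188, 1211, 1514 and 598. In irradiated replicates 1 to 4 they were 1263, 1086, 957 and 639. Replicate 4 was the dimmest in both groups, and the ranges of the groups overlapped. The local background of this spot was marked as outlying on the array of non-irradiated replicate 2, and the value was kept.

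After normalization the Tnfrsf11b log2 signal was 10.28, 10.14, 10.34 and 9.35 in non-irradiated replicates 1 to 4 and 10.00, 10.21, 10.09 and 9.43 in the irradiated ones. The group means were 10.03 ± 0.46 and 9.93 ± 0.35 (SD, n = 4 each). Irradiated cells read lower in replicates 1 and 3, by changes of -0.27 and -0.24, and higher in replicates 2 and 4, by 0.07 and 0.08. The pairs therefore did not share a direction.

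The mean log2 change of Tnfrsf11b was -0.09 (SE 0.12, 95% interval -0.40 to 0.21), which corresponds to a ratio of irradiated to non-irradiated signal of 0.94 with an interval of 0.76 to 1.16. It did not pass the test (limma, adjusted p = 1.00, and exact two-sided sign-flip test over 4 pairs, p = 0.5, where 0.125 is the smallest value 4 pairs allow).

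The Tnfrsf11b signal also varied between cultures. The mean log2 signal of both arrays of a number was 10.14, 10.18, 10.21 and 9.39 for replicates 1 to 4, a span of 0.83. Replicate 4 stood below the other numbers in both groups. The test of replicate number gave an adjusted p of 0.10 for Tnfrsf11b, just under the threshold (limma F-test, 9.18% of probes called). The call was kept in 8 of 13 alternatives, from 0.0340 without replicate 2 to 0.0888 with probes of a gene averaged. It was lost without replicate 1 (0.164), without replicate 3 (0.193) and without replicate 4 (0.97). It was also lost with no filter on dim probes (0.173) and with outlying spots kept. The call therefore fell on either side of the threshold by setting and is not a firm difference. Replicate 4 was also the number with the lowest median processed signals, 56.2 and 56.8.

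Several osteoblast genes were also lowest in that culture. Alpl, the alkaline phosphatase of mineralizing cells, had a mean log2 signal over both arrays of 8.51 in replicate 4 and 10.32 to 10.73 in the others. Bglap, the gene of osteocalcin, had 6.85 against 8.02 to 8.81, and Ibsp, the gene of bone sialoprotein, 4.66 against 5.82 to 6.33. Replicate 4 was the lowest number for 8 of the 14 tested osteoblast genes. It was the highest for 4, the collagen genes Col1a1 (18.24) and Col1a2 (17.62), Sparc (17.67) and Spp1 (14.65). The log2 of the summed osteoblast signal was not lower there (19.61 and 19.57). The brightest genes, here Col1a1, Col1a2 and Sparc, weigh most in such a sum. The part of array brightness or of these genes in the Tnfrsf11b value was not tested.

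**Figure D2:**
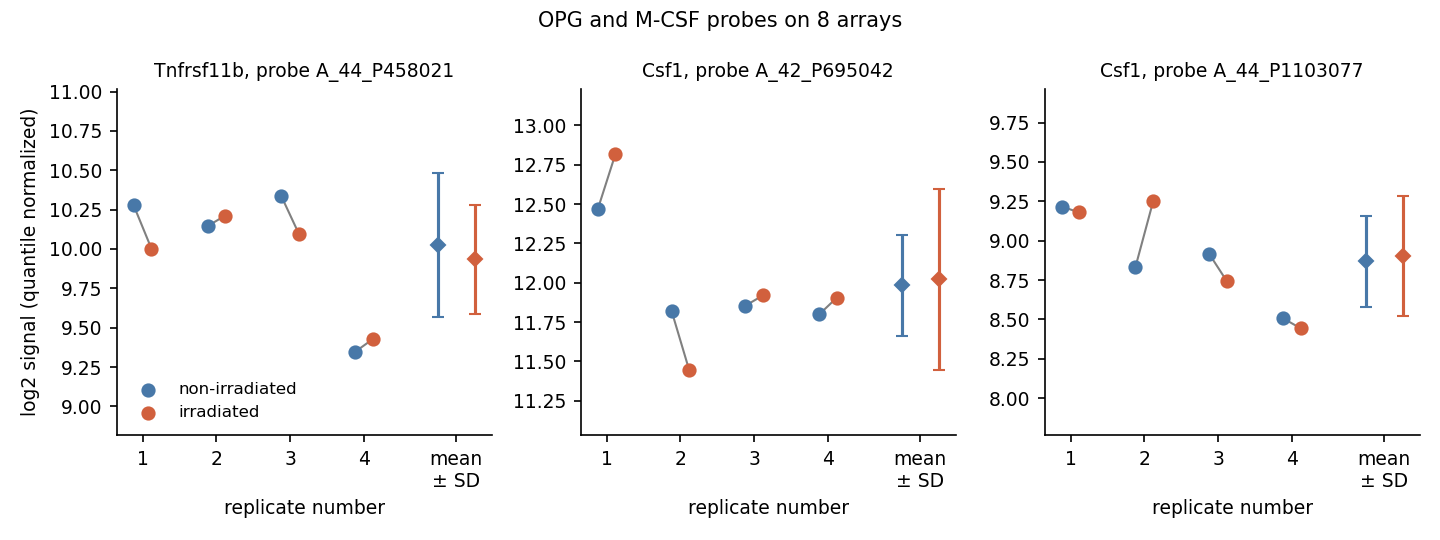
Normalized log2 signal of the Tnfrsf11b probe and the Csf1 probes on each array, with a line joining the arrays of 1 replicate number, and on the right of each panel the group mean with its SD (n = 4 arrays). The groups overlap at all 3 probes. Replicate 4 of Tnfrsf11b (9.35 and 9.43) is the lowest and replicate 1 of Csf1 probe A_42_P695042 (12.47 and 12.82) the highest in each group.

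Csf1, the gene of M-CSF, was detected on all 8 arrays by both of its probes. With probe A_42_P695042 the processed signals in non-irradiated replicates 1 to 4 were 5306, 3839, 4248 and 3374. In irradiated replicates 1 to 4 they were 8408, 2552, 3379 and 3681. Both the highest and the lowest array belonged to the irradiated group, which enclosed the non-irradiated range.

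The log2 signal of that probe was 12.47, 11.82, 11.85 and 11.80 in non-irradiated replicates 1 to 4 and 12.82, 11.44, 11.92 and 11.91 in the irradiated ones. The group means were 11.99 ± 0.32 and 12.02 ± 0.57 (SD, n = 4 each). Irradiated cells were higher in 3 of 4 pairs, with changes of 0.35, 0.07 and 0.11 in replicates 1, 3 and 4, and lower in replicate 2, with a change of -0.38. The change in replicate 2 was about as large as that in replicate 1 and opposite in sign.

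The mean log2 change of Csf1 was 0.04 (SE 0.15, 95% interval -0.33 to 0.40), a ratio of 1.03 with an interval of 0.80 to 1.32. It did not pass the test (limma, adjusted p = 1.00, exact two-sided sign-flip test p = 0.75). Without replicate 1 the change was -0.07, so the sign of this small change depends on 1 culture.

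The other Csf1 probe, A_44_P1103077, read 9.22, 8.83, 8.91 and 8.51 in non-irradiated replicates 1 to 4 and 9.18, 9.25, 8.74 and 8.44 in the irradiated ones, as log2 signals. Here irradiated cells were higher in 1 of 4 pairs, replicate 2, with a change of 0.42, and the other changes were -0.04, -0.17 and -0.06. The mean change was 0.04 (SE 0.14, 95% interval -0.31 to 0.38, limma adjusted p = 1.00), the same as for the first probe to 2 decimals.

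The means hide that the Csf1 probes disagreed pair by pair. In every replicate number the sign of the change differed between them, and in replicate 2 the changes were -0.38 and 0.42. The difference between their changes was 0.39, -0.80, 0.24 and 0.17 in replicates 1 to 4, with a mean of 0.0012 (exact two-sided sign-flip test, p = 1). The direction of Csf1 within a single culture thus depended on the probe.

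Csf1 readings also varied between cultures, though not firmly. With the first probe the mean log2 signal of both arrays of a number was 12.64, 11.63, 11.89 and 11.85, a span of 1.01, and replicate 1 was the highest in both groups. The test of replicate number gave an adjusted p of 0.116 for this probe and 0.186 for the second, both over the threshold (limma F-test), although 6 other settings, and leaving out replicate 2, brought the first under it. With the second probe the culture means were 9.20, 9.04, 8.83 and 8.47, so replicate 1 had the highest mean. In irradiated cells alone, replicate 2 read higher than replicate 1 at that probe (9.25 against 9.18).

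Replicate 1 also differed from the other cultures in genes of the cartilage and osteoclast lists. The log2 of the summed signal of 7 cartilage genes was 12.96 and 13.00 on its non-irradiated and irradiated arrays. On the other 6 arrays it was 16.6 to 17.8. Col2a1, the main collagen of cartilage, had log2 signals of 9.84 and 10.23 there and 14.68 to 15.88 elsewhere. The log2 of the summed signal of 5 detected osteoclast-list genes was 15.30 and 14.96 in replicate 1 and 13.85 to 14.72 elsewhere. In non-irradiated replicate 1 the brightest of these genes were Ctsk (14.48) and Nfatc1 (13.57). Replicate 1 was the highest number for 4 of the 5 genes and the lowest for 1. Among replicates 2 to 4, replicate 2, with 14.26 and 14.72, held the array with the highest osteoclast sum. Of these numbers it had the lowest mean of the first Csf1 probe (11.63) and the highest mean of the second (9.04). Within the list Siglec15, a surface lectin of osteoclasts, was lowest in replicate 1 (4.38 against 4.99 to 5.58). Tnfrsf11a, Dcstamp and Atp6v0d2 of the same list were detected on 0 arrays. The part of the cartilage-list and osteoclast-list genes in the Csf1 level was not tested.

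**Figure D3:**
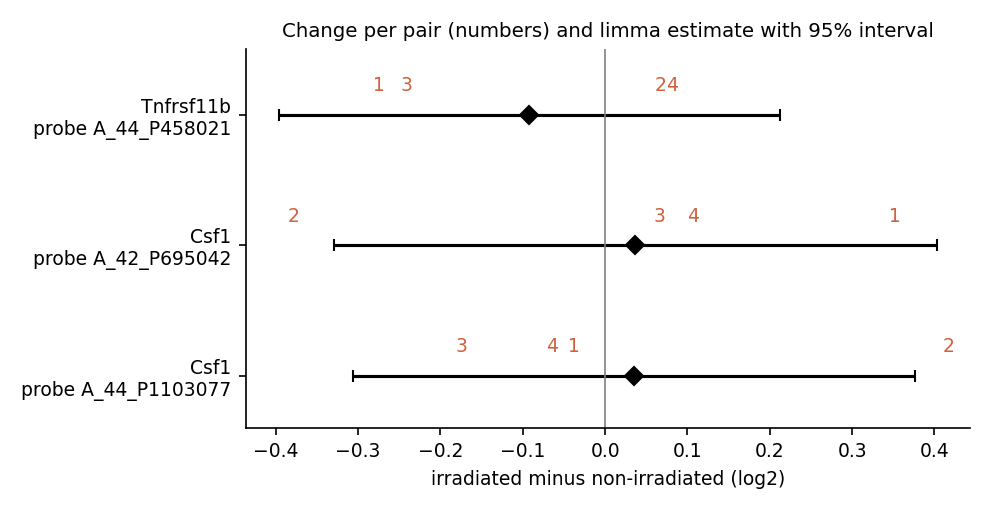
Change in log2 signal, irradiated minus non-irradiated, of each detected member probe. Digits mark the change in each replicate number, and the diamond with its bar is the limma estimate with its 95% interval. All 3 intervals include 0, and the pairs of each probe lie on both sides of it.

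The balance of the ligand to its decoy is usually read as RANKL relative to OPG. The Tnfsf11 minus Tnfrsf11b log2 signal could be given on 0 of 8 arrays, because no array detected Tnfsf11. Csf1 and Tnfrsf11b were both detected on 8 of 8 arrays, so their difference was followed instead. Since brightness is not comparable between probes, only its change from array to array carries information.

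Relative to Tnfrsf11b, Csf1 probe A_42_P695042 changed by 0.63, -0.45, 0.31 and 0.03 on the log2 scale in replicates 1 to 4, a mean of 0.13 ± 0.45 (SD, n = 4 pairs). It was higher in 3 of 4 pairs, and the exact two-sided sign-flip test gave p = 0.625. With 4 pairs this test cannot go below 0.125, so it could not have passed the threshold whatever the values. Without replicate 1 the mean change was -0.04, and without replicate 2 it was 0.32. With the other Csf1 probe the mean change was 0.13 ± 0.22 (p = 0.375, same exact test). For both probes the mean change was smaller than the SD over the pairs.

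The receptors were read as a description of the cells on which these proteins act. Tnfrsf11a, the gene of RANK, was detected on 0 of 8 arrays, and its spot passed the weaker background test on 3 arrays of each group. The Csf1r probes, for the M-CSF receptor, were detected on 5 and 3 of 8 arrays, too few to be tested. Calcr, the calcitonin receptor of mature osteoclasts, was detected on 1 of 8 arrays by the brighter of its probes. Dcstamp and Atp6v0d2, both needed for fusion of osteoclast precursors, were detected on 0 arrays.

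Acp5 and Ctsk, the tartrate-resistant acid phosphatase and the cathepsin K of osteoclasts, were detected on all 8 arrays, with mean log2 signals of 11.56 and 13.31 in non-irradiated cells. Their changes were 0.03 (SE 0.22) and 0.06 (SE 0.13). Of 12 listed osteoclast genes, 11 were on the array and 5 were tested, of which 0 were called. The 15 osteoblast genes were all on the array, and 14 were tested and detected on all 8 arrays. Of 12 macrophage and 8 lymphocyte genes, 7 and 2 were tested. The log2 of the summed signal of macrophage genes was 10.5 to 10.7 in non-irradiated and 10.3 to 10.9 in irradiated cells. For lymphocyte genes it was 9.23 to 9.79 and 9.40 to 9.55.

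Other ligands and receptors of the coupling between osteoblast and osteoclast were read from a list of 21 genes, of which 20 were on the array and 14 were tested. Of these 6 read higher and 8 lower, with a median log2 change of -0.02, beside a median of -0.0034 over all probes. With adjusted p under 0.1, 0 were called. Lgr4, a receptor that competes with RANK for RANKL, had mean log2 signals of 11.35 and 11.39 and a change of 0.04 (SE 0.21). Il34, the other ligand of the M-CSF receptor, had a change of -0.06 (SE 0.16). Tnfsf10, the gene of TRAIL, a second ligand that OPG can bind, was detected on 5 arrays by 1 probe and on 0 by the other.

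Cxcl12, a chemokine that draws osteoclast precursors, was the single gene of that list with an unadjusted p under 0.05 at the probe with the highest mean over all arrays. That probe, A_44_P337351, read 10.10, 9.15, 8.61 and 7.32 in non-irradiated replicates 1 to 4 and 10.43, 9.61, 8.64 and 7.94 in irradiated ones. The irradiated array was the higher in 4 of 4 pairs, with a mean change of 0.36 (SE 0.14, limma unadjusted p = 0.0385, adjusted p = 1.00). A second Cxcl12 probe, A_64_P135474, had a change of -0.03 (SE 0.19). That probe was the brighter in non-irradiated cells (8.90 against 8.79) and the dimmer in irradiated cells (8.87 against 9.15), so the change itself decided which probe stood for the gene, and nothing is read from its p. Higher readings at this unadjusted threshold made up 1.42% of all probes.

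Proteins that release RANKL or M-CSF from the cell surface were covered by a list of 8 genes, which also held the protease inhibitors Timp2 and Timp3. Of the 8 genes 7 were tested, 2 higher and 5 lower, with a median of -0.01. Timp3 was among the higher and Timp2 among the lower. Mmp14 and Adam10, which can shed RANKL, had changes of 0.03 (SE 0.13) and -0.04 (SE 0.12). Adam17, which can shed both ligands, had a change of -0.09 (SE 0.36). None of the 7 had an unadjusted p under 0.05.

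Of 30 known regulators of Tnfsf11 and Tnfrsf11b, 27 were tested, 16 higher and 11 lower, with a median log2 change of 0.02 and 0 genes with an unadjusted p under 0.05. Ptgs2, which makes the prostaglandin that raises RANKL, had a change of 0.19 (SE 0.14). Pth1r, the receptor of parathyroid hormone, had a change of -0.12 (SE 0.12). Ptger4, a prostaglandin E2 receptor, and Il6st, the shared receptor chain of the interleukin-6 family, had changes of 0.09 (SE 0.16) and 0.08 (SE 0.11). Vdr, the vitamin D receptor, had a change of 0.0015 (SE 0.22). Il6, a cytokine that can raise RANKL, was detected on 0 arrays.

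Genes of the pathway below RANK numbered 22, all on the array, and 21 were tested, 12 higher and 9 lower, with a median of 0.01. Map3k14, the kinase NIK of the non-canonical NF-κB branch, had an unadjusted p under 0.05 at its tested probe (limma unadjusted p = 0.00777, adjusted p = 1.00). Its log2 signals were 4.42, 3.68, 4.49 and 4.62 in non-irradiated replicates 1 to 4 and 4.76, 4.62, 4.95 and 5.09 in irradiated ones. The mean change was 0.55 (SE 0.14), and irradiated replicate 2 and non-irradiated replicate 4 both rounded to 4.62. The spot was dim, detected on 3 non-irradiated and 4 irradiated arrays, and so passed the filter only through the group in which it read higher. Nothing is read from its p, and it was not tested where detection on all 8 arrays was required. Among dimmer probes of listed genes, A_42_P768978 for Nrp1, a semaphorin receptor, read -0.32 (SE 0.12) and A_44_P1157930 for Relb, a subunit of non-canonical NF-κB, read 0.44 (SE 0.17), also with an unadjusted p under 0.05. The Relb probe too was detected on 3 non-irradiated and 4 irradiated arrays and entered only through the irradiated group. The brightest probes of these genes gave -0.18 (SE 0.19) and 0.17 (SE 0.23). Nfatc1, the transcription factor that carries the pathway to its targets, had mean log2 signals of 13.07 and 13.07.

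Heat shock genes, which report thermal stress, were 9 in number with 8 tested, 6 higher and 2 lower, a median of 0.04 and 0 with an unadjusted p under 0.05. Hspa1a, an inducible chaperone, had a change of 0.19 (SE 0.16).

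**Figure D4:**
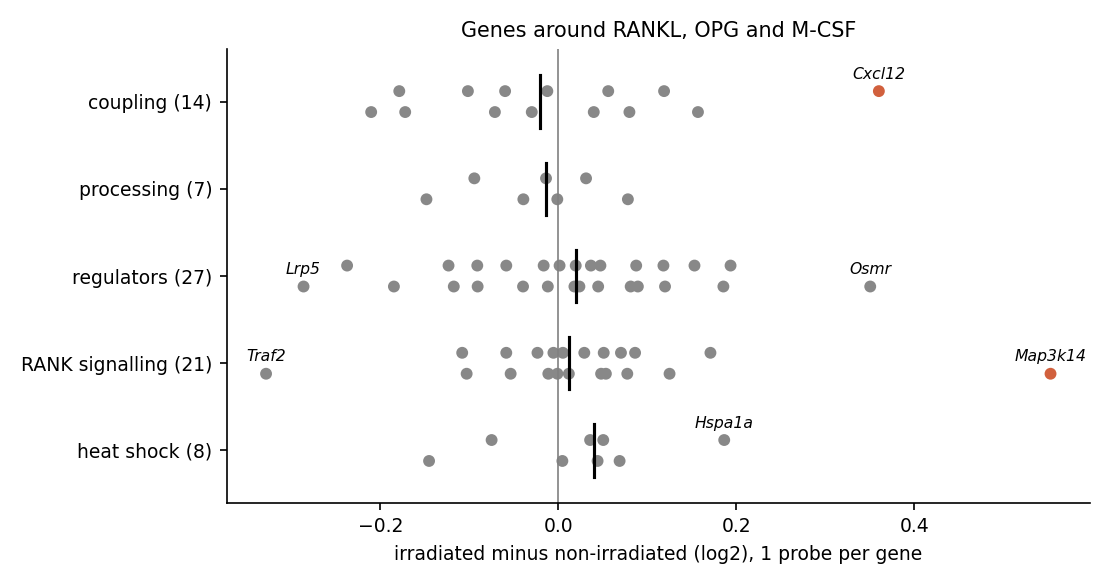
Log2 change, irradiated minus non-irradiated, of the tested genes of the 5 pathway lists (number of genes in brackets), with 1 point a gene, at its brightest tested probe, and a bar at the median of the list. The medians lie between -0.02 and 0.04, and Cxcl12 and Map3k14, coloured, have an unadjusted p under 0.05. Map3k14 was tested only because the irradiated group passed the filter, and a second Cxcl12 probe had a change of -0.03.

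The probes most like the members across the 8 arrays were found by correlating log2 signals, as a description over arrays that share cultures. For Tnfrsf11b, of 18437 probes, these were Map1lc3b (Pearson r = 0.976), Emilin2 (0.971) and Gpc1 (0.970), which encode an autophagosome protein, an extracellular matrix glycoprotein and a cell surface proteoglycan. For Csf1, of 18436 probes, these were Cd248 (0.983), Slc18a2 (0.981) and Eml1 (0.978), which encode a membrane protein of stromal cells, a monoamine transporter and a microtubule-binding protein. By rank these 6 were less alike, with Spearman rho of 0.786 to 0.881 for Tnfrsf11b and 0.595 to 0.905 for Csf1. No probe was matched to Tnfsf11, as it was not detected.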

How the data were processed

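Total RNA, 200 ng a sample, was labelled with Cy3 and hybridised to one-colour rat arrays. The authors scanned them and extracted intensities with Agilent Feature Extraction 11.0.1.1, and the deposited files give background-corrected processed intensity (gProcessedSignal) for 62976 spots, of which 58717 hold rat probes. The authors also deposited normalized log2 values, used here as an alternative. From the intensities, log2 values were quantile-normalized over rat spots, outlying spots were removed, and spots of a probe were averaged. A probe was tested where most of its spots were well above background on each of the 4 arrays of a group (26404 probes). limma 3.58.1 in R 4.3.3 fitted group and replicate number, with Benjamini-Hochberg adjustment over all probes and a threshold of 0.1. Differences between probes were tested by exact two-sided sign flips over the 4 pairs. An F-test of replicate number was added after the values were seen. Intensities give no counting depth, so the number of arrays limits the precision.

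Pairing came from the replicate numbers of the titles and the animal number carried by both arrays of a number. The correlation of the deviations of the arrays of a number was 0.608, 0.054, 0.571 and 0.749 for numbers 1 to 4, and number 2 of the irradiated group correlated better with number 1 of the other group (0.439). Within 1 gene the leading probe was that with the highest mean signal. Members and gene lists were chosen with earlier results of these data known. Named genes were the members, list genes with an unadjusted p under 0.05, up to 4 others a list by role (partners, shedding enzymes, upstream receptors) and the 3 probes most correlated with a member. Col2a1, Ctsk, Acp5, Calcr, Dcstamp, Atp6v0d2, Ptgs2, Il6, Nfatc1 and Hspa1a were added after their values were seen. So were Alpl, Bglap, Ibsp, Col1a1, Col1a2, Sparc, Spp1, Siglec15, Timp2 and Timp3. Of simulated 2-fold changes in 200 of 26250 probes, 100% were recovered, and 14.5% of calls were unchanged probes. All simulated probes had noise of 1 size, the median of the real probes. Real probes differ in noise, so recovery for the noisier ones was not measured. The arrays of a group are taken as separate cultures.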

Additional observations from a re-analysis of the deposited data

Results flagged for a closer look

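The Csf1 probe A_42_P695042 on the array of non-irradiated replicate 1 had a log2 signal of 12.47, while the other non-irradiated arrays lay between 11.80 and 11.85. Its gap to the nearest of them was 0.917 of the range of the group, over the critical value of 0.829 for 4 samples. Of 12 groups of values examined, 1 stood out in this way, and chance gives about 1 in 20. The irradiated array of the same number was the highest of its group as well, with 12.82. The log2 of the summed cartilage gene signal on these 2 arrays was 12.96 and 13.00, and its part in the Csf1 value was not tested.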

How the results depend on the processing

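The Tnfrsf11b change kept its sign and its side of the threshold in 15 of 15 alternatives, from -0.15 to -0.03. The Csf1 change kept them in 14 of 15, from -0.07 to 0.17, and turned to -0.068 without replicate 1. The Csf1 minus Tnfrsf11b change ran from -0.037 to 0.32 with an array pair left out and turned to -0.037 without replicate 1. In all 15 alternatives 0 probes had an adjusted p under 0.1, with a smallest value of 0.212 when replicate number was a random block. Tnfsf11 has no tested value. A fit with no filter on dim probes gives none that can be read, since 5 of its 8 values, all 4 non-irradiated ones among them, were substitutes set by the software, so no change is given for it or relative to Tnfrsf11b.

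Probes with an unadjusted p under 0.05 (670) numbered 253 after normexp correction, 254 on the mean signal, 1658 with no filter, 292 in the deposited log2 values, 246 with no replicate block, 384 with a trend and robust prior, and 392 to 1410 with an array pair left out. Pathway list genes at that threshold (2) came to 1 after normexp, on the mean signal, with detection on all 8 arrays, with probes of a gene averaged, and with no replicate block or a random replicate block, 0 in the deposited values, and 1 to 3 with an array pair left out. Pairing changed no call at the adjusted threshold.

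Probes that differed between replicate numbers (2422) came to 3734 on the mean signal, 618 with no filter and 3675 in the deposited values, and to 148, 9628, 471 and 333 without replicates 1, 2, 3 and 4. For Tnfrsf11b the adjusted p was 0.173 with no filter, 0.10 with outlying spots kept and 0.0340 to 0.972 with an array pair left out. Under the remaining settings it stayed under the threshold, from 0.0428 after normexp to 0.0888 with probes averaged. For Csf1 it was 0.0705 after normexp, 0.0670 on the mean signal, 0.0998 with detection on all 8 arrays, 0.0610 in the deposited values, 0.0958 with probes averaged, 0.0669 with the trend and robust prior and 0.0318 to 0.664 with an array pair left out. The cause of these moves was not tested.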
